A study of Homo sapiens with 6 samples.

Results

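PANC-1 cells are an established human line from a carcinoma of the pancreas with ductal features, and maslinic acid (MA) is a triterpenoid found in olives. RNA-seq compared 3 samples given 40 μM MA over 24 h (MA PANC-1 1 to 3) with 3 samples that received none, at 0 μM (PANC-1 1 to 3), and values of a group are listed below in the order of replicates 1, 2 and 3. Here the 40 glycolysis and hypoxia response genes of that comparison are described, out of 58825 genes in the deposited table. They were chosen by name, for known roles in oxygen sensing, in the response to the hypoxia-inducible factors (HIF), in glucose uptake, in glycolysis or in the handling of pyruvate and lactate, and each name matched 1 gene.

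All 6 samples are of 1 cell line with the same culture medium, the labels name no culture at low oxygen, and the values stand for a single dose and time. The label of the cells was compared with marker genes. KRT8 was between 140.8 and 224.8 FPKM, KRT18 between 277.7 and 337.7 FPKM and VIM between 520.6 and 753.6 FPKM, whereas the keratin KRT7 did not exceed 2.2 FPKM and KRT19 did not exceed 0.109 FPKM. The acinar genes PRSS1 and CPA1 and the islet genes INS and GCG had a count of 0 in every sample. Of the leukocyte markers, PTPRC had 8 counts in 1 sample and 0 in the others, and CD68, a lysosomal protein that is also made outside leukocytes, was between 25.65 and 40.93 FPKM in both groups. The endothelial genes PECAM1 and VWF did not exceed 0.0275 FPKM, the fibroblast genes COL1A2 and DCN did not exceed 0.4053 FPKM, and COL1A1 was between 2.64 and 5.96 FPKM.

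Glycolysis splits glucose into pyruvate and yields ATP without oxygen. Glucose enters through transporters of the SLC2A family, is trapped and split in the upper stage of the pathway, and is oxidized to pyruvate in the lower stage, after which lactate dehydrogenase and the pyruvate dehydrogenase kinases decide between lactate and the mitochondrion. When oxygen is present, prolyl hydroxylases of the EGLN family mark the HIF alpha subunits for VHL, which directs their destruction. When oxygen is scarce the alpha subunits persist, pair with ARNT and bind short DNA elements beside many of the genes described here. Since this control acts mostly on HIF protein, the level of HIF1A mRNA is not a measure of HIF activity. Pancreatic ductal tumours are known for poor oxygen supply and a high use of glucose.

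HIF binds a short core sequence, ACGTG or GCGTG. To show how members of different roles carry it, the promoter windows of 4 of them follow, a transporter (SLC2A1), a lower glycolysis enzyme (PGK1), lactate dehydrogenase A (LDHA) and the HIF subunit HIF1A. Each runs 5′ to 3′ on the gene's strand from 250 bases before to 50 bases after the start site in RefSeq on GRCh38.p14, with matches to either core on either strand in capitals, those of the other strand reading as CACGT, or as CACGC.
SLC2A1 (chr1:42958819-42959118, minus strand): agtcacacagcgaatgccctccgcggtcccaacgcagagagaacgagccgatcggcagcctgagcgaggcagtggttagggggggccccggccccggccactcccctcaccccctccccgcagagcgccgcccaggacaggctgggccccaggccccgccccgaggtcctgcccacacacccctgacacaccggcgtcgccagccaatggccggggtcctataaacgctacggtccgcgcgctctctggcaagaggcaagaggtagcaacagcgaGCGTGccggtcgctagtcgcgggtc
PGK1 (chrX:78103998-78104297, plus strand): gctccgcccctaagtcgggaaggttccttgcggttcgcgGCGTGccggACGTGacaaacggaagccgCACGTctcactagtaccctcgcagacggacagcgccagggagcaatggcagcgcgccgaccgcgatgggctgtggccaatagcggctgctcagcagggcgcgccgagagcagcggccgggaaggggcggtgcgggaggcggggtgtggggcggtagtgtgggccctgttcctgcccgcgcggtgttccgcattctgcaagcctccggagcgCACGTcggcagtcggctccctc
LDHA (chr11:18394313-18394612, plus strand): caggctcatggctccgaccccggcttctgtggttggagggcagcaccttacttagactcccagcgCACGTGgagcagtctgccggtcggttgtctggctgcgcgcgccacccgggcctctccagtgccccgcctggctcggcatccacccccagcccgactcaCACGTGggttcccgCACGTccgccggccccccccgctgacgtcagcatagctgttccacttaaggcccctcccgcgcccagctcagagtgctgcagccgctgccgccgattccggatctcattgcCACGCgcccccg
HIF1A (chr14:61695263-61695562, plus strand): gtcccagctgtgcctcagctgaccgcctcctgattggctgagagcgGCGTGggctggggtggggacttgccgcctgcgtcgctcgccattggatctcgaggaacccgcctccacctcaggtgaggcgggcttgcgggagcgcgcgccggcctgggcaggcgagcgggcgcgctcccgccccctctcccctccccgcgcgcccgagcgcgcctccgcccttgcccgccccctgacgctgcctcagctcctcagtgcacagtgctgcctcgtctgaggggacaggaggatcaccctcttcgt
The window of LDHA held 6 matches and that of PGK1 held 4, while SLC2A1 and HIF1A held 1 each. In LDHA, 4 of the 6 are overlapping pairs, since the palindrome CACGTG reads as a match on both strands. Of the 40 members, 35 had a RefSeq window, and 26 of these (74.3%) held at least 1 match, against 47.8% of 27305 gene symbols with a window of the same length. For 2 or more matches the share was 25.7% of the members and 22.9% of all symbols. Of 73 further genes of the same pathways with a window, 65.8% held at least 1 match and 45.2% held 2 or more. For each symbol 1 window was used, also where several were listed. Both cores contain the letters CG, and the windows were not matched for base content. The 5 members with no window in the table were VHL, VEGFA, NDRG1, SLC2A3 and SLC16A1. A match is a description of the letters in a window, not of binding.

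With MA, the libraries held 56978375, 63984133 and 58181114 estimated counts, and without it 70275355, 65607669 and 59422939. Members of the list took 2.63%, 2.65% and 2.47% of them with MA and 2.32%, 2.17% and 2.26% without it. MA PANC-1 2 stood apart from the other libraries. Its TMM normalization factor was 0.94, against 1.0035 to 1.0184 in the other 5, and the GC content of its transcripts, weighted by count, was 52.2%, against 50.9% to 51.4%. It also differed more from the other replicates of its group, with a chi-square per degree of freedom of 92.8 and 131.3 for the pairs that include it, against 61.4 for MA PANC-1 1 and 3 and 54.5 to 62.9 for the pairs of PANC-1.

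Levels are given as FPKM, a value per length of transcript and per depth. The members spanned a wide range, from GAPDH, with a mean of 2564 FPKM over the 6 samples (rank 14 of the 17774 genes tested), to the prolyl hydroxylase EGLN3, which did not exceed 0.0544 FPKM and was the only member under the mean FPKM of 0.1 required for the test. GAPDH oxidizes glyceraldehyde 3-phosphate, and it alone held 47.0% of the members' summed mean FPKM. ENO1, the enolase of most tissues, followed at 735.0 FPKM and the triose phosphate isomerase TPI1 at 382.8 FPKM. Next came LDHB (278.5 FPKM), PKM (254.6), ALDOA (249.2) and PGAM1 (244.5). From TPI1 to PGAM1, the range of each gene over the 6 samples overlapped that of the next, so their order does not exceed the spread between samples. PGK1 (183.4 FPKM), LDHA (152.5) and PFKP (103.2) closed the group above 100 FPKM. PGK1 and LDHA overlapped as well. All 10 are enzymes of glycolysis or of the step from pyruvate to lactate. The other regulators were far lower, between EPAS1 (12.5 FPKM) and ARNT (4.43 FPKM), and CA9, a carbonic anhydrase often used as a marker of hypoxia, was at 0.281 FPKM.

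**Figure D1:**
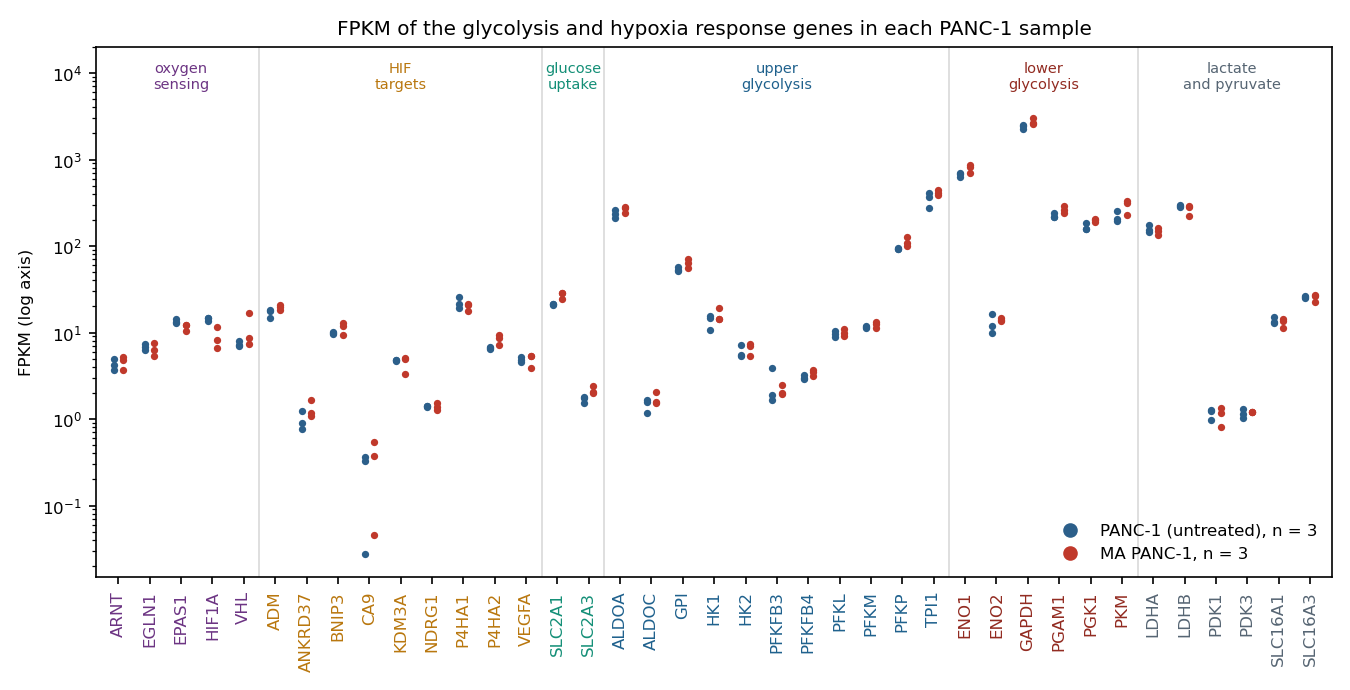
FPKM of the 39 tested members (log axis) in each of the 3 PANC-1 samples (blue) and the 3 MA PANC-1 samples (red), ordered by role. GAPDH (mean 2564 FPKM) and ENO1 (735.0 FPKM) hold the highest values, the 2 groups lie close together for nearly every gene, and CA9 spreads from 0.0273 to 0.547 FPKM within the samples.

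With 3 samples a group, no member passed an adjusted p of 0.05 in edgeR's quasi-likelihood test, where 0.0394% of the 17774 genes did (7 genes), and no member was a differentially expressed gene (DEG: 2-fold or more in either direction with an unadjusted p under 0.05), where 1.92% of genes were (342 genes). The differences below are therefore not past the adjusted threshold, and they are given with their unadjusted p. In all, 9 of the 39 tested members (23.1%) had an unadjusted p under 0.05, against 11.2% of all genes tested. The count depended on single samples. Without any 1 of MA PANC-1 1, PANC-1 1, PANC-1 2 or PANC-1 3, it was 3 members (7.69%), where 6.63% to 7.93% of all genes had such a p. Without MA PANC-1 2 it was 8 (20.5%, against 10.3%) and without MA PANC-1 3 it was 13 (33.3%, against 18.1%). Of the 9, 8 were higher in MA PANC-1 (SLC2A1, SLC2A3, P4HA2, PFKP, PKM, PGK1, PGAM1 and ENO1), where the share of all genes was 5.37%, and 1 was lower (HIF1A), where the share was 5.86%. Over the members the median log2 fold change was 0.22, against -0.0017 over all genes, and 29 of 39 (74.4%) were above 0, against 49.8% of all genes. The median of the members was 0.13 without MA PANC-1 2, and 12 of the 39 changed sign when 1 of the 6 samples was left out, none of them among the 9. Leaving out 1 sample turned or moved the log2 fold change by over 1.5 times in 31 of the 39. Of the 9, HIF1A and SLC2A1 had an unadjusted p under 0.05 whichever sample was left out. The other 7 lost it in edgeR without between 3 and 5 of the 6 samples each, with the highest p at 0.158 (ENO1 without PANC-1 3). The highly expressed genes of the table leaned the same way. Of the 346 genes with a mean of at least 100 FPKM, which include the 10 members named above, 71.1% were above 0, with a median of 0.10.

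**Figure D2:**
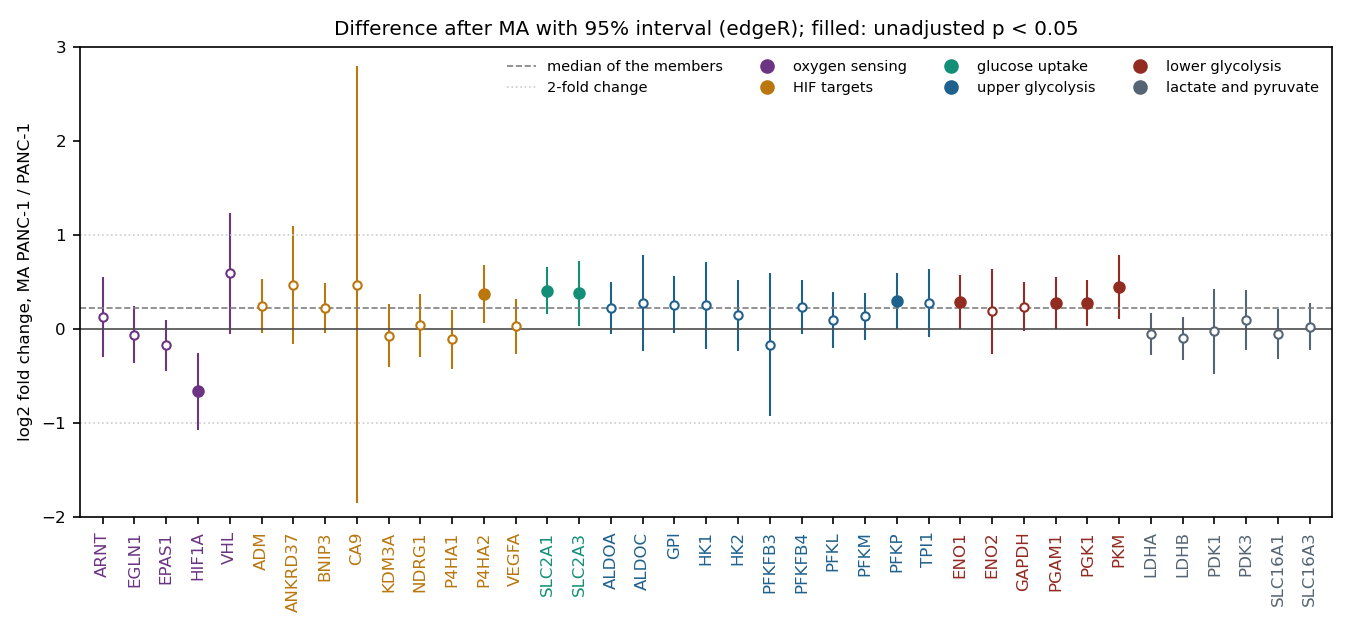
Log2 fold change of MA PANC-1 over PANC-1 for the 39 tested members with the 95% interval of edgeR, ordered and coloured by role, filled where the unadjusted p is under 0.05. HIF1A lies at -0.67, both glucose transporters and all 6 lower glycolysis enzymes lie above 0, and the lactate and pyruvate genes lie around 0.

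The differences between groups ran with GC content. Across the 13028 genes whose mean count reached 100, the log2 fold change correlated with the GC content of the transcripts (Pearson r = 0.29, across genes of the same 6 libraries), and its median went from -0.25 in genes with 35% to 40% GC to 0.17 in genes with 65% to 70% GC. The members had a median GC content of 54.7%, against 50.0% for the genes tested. When a smooth GC trend was removed from each library, a step chosen after seeing the data, the median log2 fold change of the members was 0.13 and 32 of 39 were above 0. In this setting 8 of the 39 members had an unadjusted p under 0.05 in edgeR, against 13.8% of all genes. The sign turned in 11 members, none with an unadjusted p under 0.05 before or after that step, among them P4HA1 (-0.11 to 0.13), EGLN1 (-0.06 to 0.13), PFKL (0.09 to -0.07) and NDRG1 (0.04 to -0.08). The part of GC content in their differences was not tested further.

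Among the oxygen sensing genes, HIF1A stood out. It encodes HIF-1 alpha, the oxygen-regulated subunit of HIF-1, and the gene lies at chr14:61695513-61748258 on the plus strand of GRCh38. HIF1A was at 8.16, 6.70 and 11.6 FPKM with MA and at 14.6, 13.7 and 14.5 FPKM without it. All MA PANC-1 samples lay below all PANC-1 samples, and the spread within MA PANC-1 (SD 2.53 FPKM, n = 3) was larger than that within PANC-1 (SD 0.503 FPKM, n = 3). Its log2 fold change was -0.67 ± 0.18 (SE), with an unadjusted p of 0.00653 and an adjusted p of 0.388 in edgeR. In bulk RNA, fewer cells with the transcript and less of it per cell cannot be told apart. Its unadjusted p was under 0.05 in the main setting and in all 18 alternatives, and leaving out 1 sample in turn gave log2 fold changes between -0.89 and -0.53, of which the second was without MA PANC-1 2. DESeq2 gave an adjusted p of 0.0388, the only member and the only setting with an adjusted call. Over all genes, 263 had an adjusted p under 0.05 by DESeq2, against 7 in the main setting. HIF1A has a low GC content (41.0%), at which genes leaned downwards, and with the GC trend removed it was at -0.48 ± 0.10 (SE) with an unadjusted p of 0.00185 in edgeR. The antisense genes HIF1A-AS1 and HIF1A-AS2 had counts of their own equal to 0.067% and 0.034% of those of HIF1A.

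EPAS1, which encodes HIF-2 alpha, was also lower in all MA PANC-1 samples, at 12.1, 12.2 and 10.3 FPKM against 12.8, 14.2 and 13.2 FPKM. The groups did not overlap, but the lowest PANC-1 sample was close to the highest MA PANC-1 sample. Its log2 fold change was -0.18 ± 0.12 (SE) with an unadjusted p of 0.169 in edgeR, -0.26 with an unadjusted p of 0.0463 when MA PANC-1 2 was left out, -0.08 with an unadjusted p of 0.435 when MA PANC-1 3 was left out, and -0.29 with an unadjusted p of 0.00500 when the GC trend was removed. The share of EPAS1 in the summed FPKM of HIF1A and EPAS1 was 57.1% ± 9.1 (SD, n = 3) in MA PANC-1 and 48.4% ± 2.19 (SD, n = 3) in PANC-1, with an exact permutation p of 0.3 (two-sided; the smallest that 3 against 3 samples allow is 0.1). This share was 59.8%, 64.5% and 46.9% in MA PANC-1 1, 2 and 3, so that the third sample lay within the range of PANC-1. The difference of 8.68 percentage points was 4.95 points without MA PANC-1 2 and 13.75 points without MA PANC-1 3.

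VHL, the substrate receptor that sends hydroxylated HIF alpha to degradation, was at 8.63, 7.46 and 16.7 FPKM with MA and at 7.91, 7.25 and 7.00 FPKM without it. A single sample, MA PANC-1 3, was high. The log2 fold change of 0.59 ± 0.27 (SE; unadjusted p = 0.0676 in edgeR) was 0.18 without it. ARNT, the constant partner of the alpha subunits, was between 3.70 and 5.25 FPKM in MA PANC-1 and between 3.68 and 5.01 FPKM in PANC-1, and the prolyl hydroxylase EGLN1 was between 5.35 and 7.64 FPKM and between 6.36 and 7.33 FPKM. For both genes the ranges of the groups overlapped.

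Of the 9 HIF targets outside glycolysis, 1 (11.1%), P4HA2, had an unadjusted p under 0.05, the same share as among all genes (11.2%). It encodes a prolyl hydroxylase subunit that modifies collagen. P4HA2 was at 8.55, 9.27 and 7.26 FPKM with MA and at 6.76, 6.68 and 6.51 FPKM without it. The groups did not overlap, and the PANC-1 samples lay within a narrow band. On the log2 scale the fold change was 0.37 ± 0.13 (SE) with an unadjusted p of 0.0238 and an adjusted p of 0.429 in edgeR, becoming 0.25 when MA PANC-1 2 was left out and 0.32 with the GC trend removed. The neighbour SLC22A4 on the opposite strand had counts of its own equal to 8.87% of those of P4HA2. The other collagen hydroxylase subunit, P4HA1, was between 17.5 and 21.4 FPKM in MA PANC-1 and between 19.0 and 26.1 FPKM in PANC-1, with a log2 fold change of -0.11 ± 0.13 (SE).

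The remaining targets did not separate the groups. Their log2 fold changes were 0.03 ± 0.12 (SE; VEGFA, the angiogenic growth factor), 0.22 ± 0.11 (BNIP3, a mitophagy receptor), 0.25 ± 0.12 (ADM, the peptide hormone adrenomedullin), -0.07 ± 0.14 (KDM3A, a histone demethylase) and 0.04 ± 0.14 (NDRG1, a stress-responsive gene). ANKRD37 was at 1.64, 1.09 and 1.17 FPKM with MA and at 0.896, 0.765 and 1.24 FPKM without it, and it shares its locus with UFSP2 on the opposite strand, whose counts were higher than its own. CA9 was at 0.547, 0.378 and 0.0451 FPKM with MA and at 0.0273, 0.325 and 0.361 FPKM without it. Each group held a sample near 0, so that its log2 fold change of 0.47 had an SE of 0.99, and ARHGEF39 on the opposite strand had far higher counts than CA9. As a group the 9 targets had a median log2 fold change of 0.22, with 7 above 0 (77.8%, against 49.8% of all genes), and with the GC trend removed it was 0.13, again with 7 above 0. BNIP3 had an unadjusted p of 0.00683 in edgeR at 0.31 without MA PANC-1 2.

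Both glucose transporters were higher in all MA PANC-1 samples. SLC2A1 encodes GLUT1, the carrier behind basal glucose uptake in most cells, and lies at chr1:42925375-42959176 on the minus strand. It was at 28.6, 28.7 and 24.6 FPKM with MA and at 20.6, 21.5 and 21.4 FPKM without it. The PANC-1 samples were tight (21.2 ± 0.53 FPKM, SD, n = 3) and every MA PANC-1 sample (27.3 ± 2.32 FPKM, SD, n = 3) lay above them. On the log2 scale the fold change was 0.41 ± 0.11 (SE) with an unadjusted p of 0.00606 and an adjusted p of 0.388 in edgeR. The unadjusted p was under 0.05 in the main setting and in all 18 alternatives, which gave log2 fold changes between 0.28, with the GC trend removed, and 0.50.

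SLC2A3 encodes GLUT3, a carrier of high affinity. Its level was far below that of SLC2A1, at 2.44, 2.03 and 2.02 FPKM with MA and at 1.75, 1.54 and 1.82 FPKM without it, again without overlap. Its log2 fold change was 0.38 ± 0.15 (SE) with an unadjusted p of 0.0349 and an adjusted p of 0.434 in edgeR, and it was 0.42 with the GC trend removed. The share of SLC2A3 in their sum was 7.35% ± 0.67 (SD, n = 3) in MA PANC-1 and 7.46% ± 0.66 (SD, n = 3) in PANC-1, a difference of -0.11 percentage points with an exact permutation p of 0.6 (two-sided) and of 0.27 points without MA PANC-1 2.

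**Figure D3:**
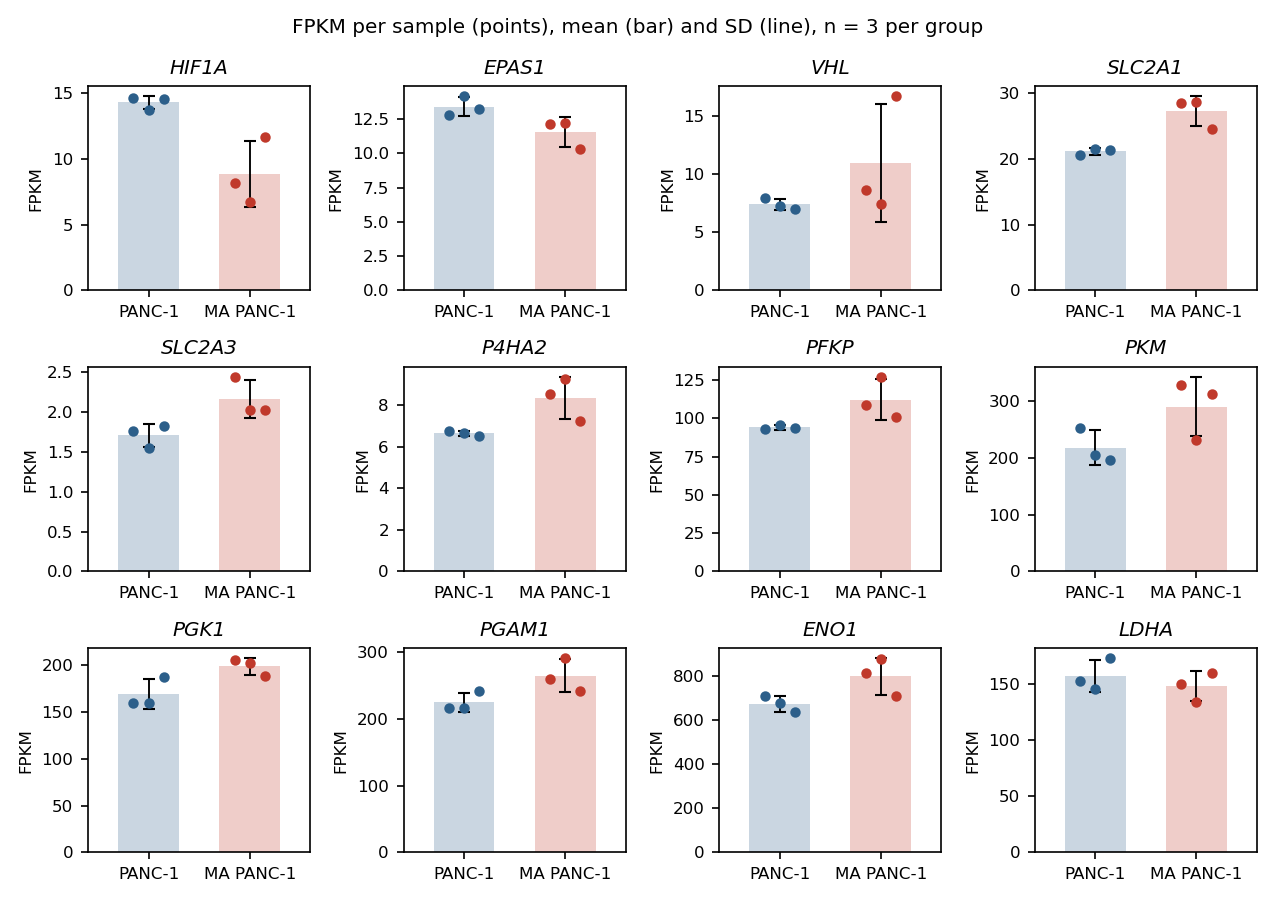
FPKM of 12 members in each sample (points), with the group mean (bar, from 0) and SD (line), n = 3 per group. HIF1A and EPAS1 are lower in every MA PANC-1 sample, SLC2A1, SLC2A3, P4HA2, PFKP, PGK1 and PGAM1 are higher in every one, the VHL mean rests on the sample at 16.7 FPKM, and the groups overlap for PKM, ENO1 and LDHA.

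Upper glycolysis, from glucose to the triose phosphates, and the enzymes that set its regulator fructose 2,6-bisphosphate took 11 members. Of these, 10 had a log2 fold change above 0, with a median of 0.23 (9 and 0.12 with the GC trend removed), where 49.8% of all genes were above 0, and 1 (9.09%) had an unadjusted p under 0.05, a share near the 11.2% of all genes. It was PFKP, the platelet-type phosphofructokinase, which carries out the committed step. PFKP was at 108.5, 127.2 and 101.0 FPKM with MA and at 92.9, 95.8 and 93.5 FPKM without it. The groups did not overlap. On the log2 scale the fold change was 0.30 ± 0.12 (SE) with an unadjusted p of 0.0478 and an adjusted p of 0.443 in edgeR. Without MA PANC-1 2, its highest sample, it was 0.15 with an unadjusted p of 0.0560, and with the GC trend removed it was 0.16 with an unadjusted p of 0.0269 in edgeR.

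The phosphofructokinase isozymes were also compared by their shares. PFKP held 82.9%, 84.0% and 83.1% of the summed FPKM of PFKL, PFKM and PFKP in MA PANC-1 1, 2 and 3 and 81.9%, 81.9% and 81.1% in PANC-1 1, 2 and 3. No MA PANC-1 sample fell within the range of PANC-1, and the means differed by 1.74 percentage points with an exact permutation p of 0.1, the smallest possible here. The liver form PFKL and the muscle form PFKM held correspondingly less, by 0.92 and 0.82 percentage points, each with an exact permutation p of 0.1, and the difference of PFKL was -0.53 points without PANC-1 3. The levels of these 2 forms had log2 fold changes of 0.09 ± 0.13 (SE) for PFKL and 0.14 ± 0.11 (SE) for PFKM, neither with an unadjusted p under 0.05 in edgeR. Of 13 isozyme shares computed, the 3 of phosphofructokinase were those without overlap between the groups, and their Benjamini-Hochberg adjusted p over the 13 was 0.433. These 3 are parts of the same sum and depend on each other, so they are not separate results, although the adjustment counts them as such.

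The other upper enzymes overlapped between the groups. TPI1 was at 442.9, 415.7 and 384.6 FPKM with MA and at 408.4, 368.1 and 277.3 FPKM without it, and the lowest value, in PANC-1 3, lay well under the rest. Its log2 fold change was 0.28 ± 0.15 (SE; unadjusted p = 0.115 in edgeR), and it was 0.13 without PANC-1 3 and 0.17 with the GC trend removed. The glucose phosphate isomerase GPI was at 0.26 ± 0.13 (SE), the aldolase ALDOA at 0.22 ± 0.12 (SE) and the brain-type aldolase ALDOC at 0.27 ± 0.22 (SE) on the same log2 scale, and with the GC trend removed they were at 0.12, 0.08 and 0.18. ALDOA and ALDOC each overlap another gene on their strand, whose counts came to 16.2% and 36.9% of their own. The hexokinases HK1 (0.25 ± 0.20, SE) and HK2 (0.14 ± 0.16, SE), which trap glucose in the cell, overlapped between the groups. HK1 was at 0.05 without MA PANC-1 2 and at 0.10 without PANC-1 3, and HK2 was between 0.06 and 0.30 with 1 sample left out. The share of HK2 in the sum of HK1 and HK2 was 29.5% ± 6.61 (SD, n = 3) in MA PANC-1 and 30.6% ± 3.28 in PANC-1. The difference of -1.16 percentage points turned to 2.64 without MA PANC-1 2 and to 0.1147 without PANC-1 3. With any other sample left out it was between -3.365 (MA PANC-1 1) and -0.5845 (PANC-1 2). PFKFB3 and PFKFB4 make or remove fructose 2,6-bisphosphate, and PFKFB3 was the 1 upper member below 0 (-0.17 ± 0.32, SE), with a single high PANC-1 sample at 3.85 FPKM against 1.68 to 2.47 FPKM in the other 5. Without that sample, PANC-1 3, its log2 fold change was 0.29. PFKFB4 was at 0.23 ± 0.12 (SE), and at 0.13 with the GC trend removed.

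In lower glycolysis, from the triose phosphates to pyruvate, all 6 members had a log2 fold change above 0, with a median of 0.28, and 4 had an unadjusted p under 0.05, against 49.8% and 11.2% of all genes (71.1% and 13.3% of the genes with a mean of at least 100 FPKM, to which 5 of the 6 belong). In edgeR, these 4 (PKM, PGK1, PGAM1 and ENO1) all lost it without MA PANC-1 1, and also without PANC-1 2, where ENO2 passed. PKM alone of the 4 kept it without MA PANC-1 2 or PANC-1 1, and PGK1 alone without PANC-1 3. In these settings 6.63% to 10.3% of all genes had such a p. Without MA PANC-1 3 all 4 kept it and GAPDH passed. With the GC trend removed PGK1 and ENO1 kept it, where 13.8% of all genes had such a p. PKM, the pyruvate kinase that makes the last ATP of the pathway, had the largest difference of the 6 before the GC trend was removed. PKM was at 329.1, 231.0 and 312.5 FPKM with MA and at 252.8, 205.8 and 196.5 FPKM without it. MA PANC-1 2 lay within the range of PANC-1 and the other MA PANC-1 samples lay above it. On the log2 scale the fold change was 0.44 ± 0.14 (SE) with an unadjusted p of 0.0171 and an adjusted p of 0.414 in edgeR, it was 0.55 without MA PANC-1 2, and with the GC trend removed it was 0.35 with an unadjusted p of 0.0872. The values sum all PKM transcripts, so the PKM1 and PKM2 forms were not told apart.

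PGK1, the phosphoglycerate kinase that makes the first ATP, was at 205.0, 202.1 and 187.8 FPKM with MA and at 159.2, 159.3 and 186.9 FPKM without it. The groups nearly met at PANC-1 3, which was just below the lowest MA PANC-1 sample. Its log2 fold change was 0.27 ± 0.10 (SE) with an unadjusted p of 0.0314 and an adjusted p of 0.432 in edgeR. PGK1 has a low GC content (44.9%), and with the GC trend removed its log2 fold change was larger, at 0.38 with an unadjusted p of 0.0197. Without MA PANC-1 2 it was 0.22 with an unadjusted p of 0.0612 in edgeR.

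PGAM1, the phosphoglycerate mutase, was at 259.9, 291.5 and 242.2 FPKM with MA and at 215.9, 216.8 and 241.0 FPKM without it, which again did not overlap but nearly met. On the log2 scale the fold change was 0.28 ± 0.12 (SE; unadjusted p = 0.0486 in edgeR), which became 0.16 (unadjusted p = 0.0851) with MA PANC-1 2 left out and 0.17 (unadjusted p = 0.0600) with the GC trend removed. ENO1 was at 811.3, 874.0 and 706.9 FPKM with MA and at 707.8, 676.1 and 633.8 FPKM without it. MA PANC-1 3 lay just under PANC-1 1. The log2 fold change of ENO1 was 0.29 ± 0.12 (SE) with an unadjusted p of 0.049996 in edgeR, at the threshold itself, and it was 0.17 (unadjusted p = 0.106) without MA PANC-1 2 and 0.20 (unadjusted p = 0.0466) with the GC trend removed.

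GAPDH, often used as a reference gene, was at 2660, 2989 and 2565 FPKM with MA and at 2427, 2227 and 2515 FPKM without it. All MA PANC-1 samples lay above all PANC-1 samples, with a log2 fold change of 0.24 ± 0.11 (SE; unadjusted p = 0.0716 in edgeR), which was 0.13 without MA PANC-1 2 and 0.10 with the GC trend removed. ENO2, the neuronal enolase, was at 0.19 ± 0.19 (SE), and at 0.07 with the GC trend removed. In edgeR it was 0.41 (unadjusted p = 0.0281) without PANC-1 2 and 0.03 (unadjusted p = 0.871) without PANC-1 3. LRRC23, which overlaps ENO2 on the same strand, had counts that came to 34.3% of those of ENO2. Counts of copies named after these genes were small beside them, 0.221% of those of GAPDH over 62 copies, 0.312% of ENO1 and 2.38% of TPI1.

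Summed over the 17 enzymes of upper and lower glycolysis, FPKM was 5225, 5546 and 4856 in MA PANC-1 1, 2 and 3 and 4607, 4278 and 4517 in PANC-1 1, 2 and 3, a sum dominated by GAPDH. The 17 had a median log2 fold change of 0.25, with 16 above 0 (94.1%, against 49.8% of all genes). Of the 17, 5 had an unadjusted p under 0.05 (29.4%, against 11.2%), namely PFKP, PKM, PGK1, PGAM1 and ENO1. In edgeR, all 5 lost it without MA PANC-1 1, and also without PANC-1 2, where ENO2 passed. PKM alone of the 5 kept it without MA PANC-1 2 or PANC-1 1, and PGK1 alone without PANC-1 3. In these settings 6.63% to 10.3% of all genes had such a p. Without MA PANC-1 3 (18.1% of all genes) all 5 kept it and ALDOA, GPI and GAPDH passed. With the GC trend removed the median was 0.13 with 15 above 0, and PFKP, PGK1 and ENO1 kept it (13.8% of all genes). Genes of 55% to 60% GC, the range that holds the median enzyme (55.7%), had a median of 0.15 before that step. Sample by sample, the median log2 ratio of the enzymes to their mean in PANC-1 was 0.21, 0.23 and 0.10 in MA PANC-1 1, 2 and 3 and -0.02, -0.04 and 0.07 in PANC-1 1, 2 and 3. MA PANC-1 3 was thus nearer to PANC-1 3 than to the other MA PANC-1 samples.

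**Figure D4:**
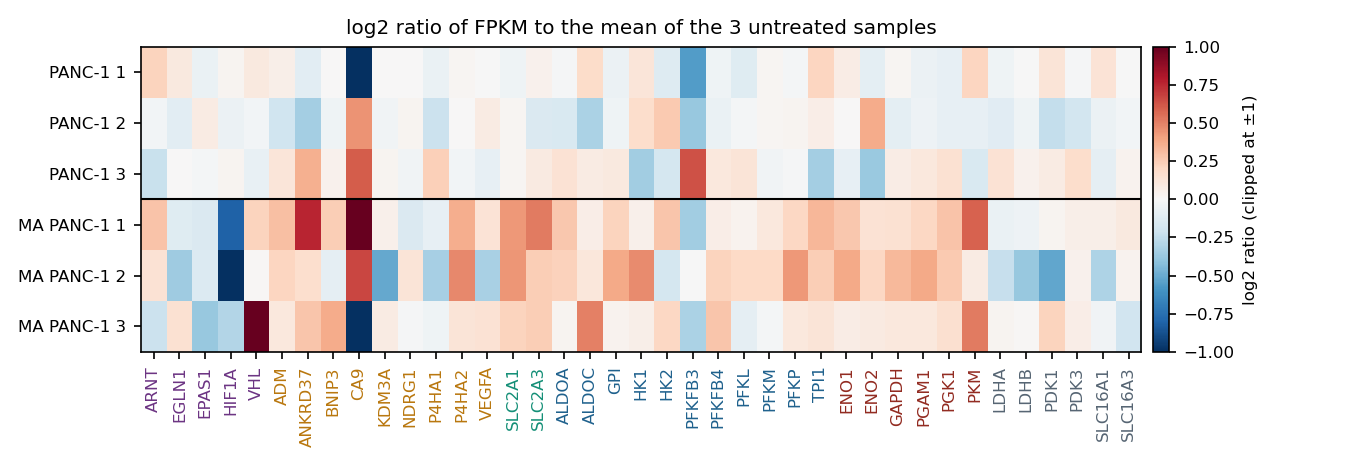
Log2 ratio of FPKM to the mean of the 3 PANC-1 samples for the 39 tested members (columns, label colours by role as in the plot of log2 fold changes) in each sample (rows), with colours clipped at 1 and -1. The MA PANC-1 rows are red over most of the uptake and glycolysis columns and blue at HIF1A and EPAS1, and CA9, PFKFB3 and VHL show single samples that leave the rest of their group.

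The genes that act on pyruvate and lactate had log2 fold changes around 0. None of these 6 members had an unadjusted p under 0.05 or groups without overlap, where the shares of all genes were 11.2% and 19.9%, so that a count of 0 among 6 is near the background, and their median log2 fold change was -0.04. LDHA, which turns pyruvate into lactate and carries 6 core matches in its promoter window, lies at chr11:18394560-18408425. It was at 150.2, 133.6 and 159.7 FPKM with MA and at 152.9, 145.2 and 173.2 FPKM without it. The groups overlapped, with a log2 fold change of -0.05 ± 0.09 (SE) and a 95% interval from -0.28 to 0.17. LDHB, which favours the reverse reaction, was at -0.10 ± 0.10 (SE), and the share of LDHB in the sum of both was 64.2% ± 1.39 (SD, n = 3) in MA PANC-1 and 65.0% ± 1.38 in PANC-1. The lactate carriers SLC16A1 (MCT1) and SLC16A3 (MCT4) were at -0.05 ± 0.11 and 0.02 ± 0.11 (SE). On the opposite strand, CSNK1D had counts equal to 51.7% of those of SLC16A3, as SENP1 had to 47.5% of those of PFKM. PDK1 and PDK3, kinases that shut pyruvate dehydrogenase, were at -0.03 ± 0.19 and 0.09 ± 0.13 (SE). These genes had a median GC content of 45.1%, against 55.7% for the enzymes of glycolysis, and with the GC trend removed 5 of the 6 were above 0, from 0.02 (LDHA) to 0.27 (PDK3), with SLC16A3 at -0.14. The difference between these genes and the enzymes was not tested.

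**Figure D5:**
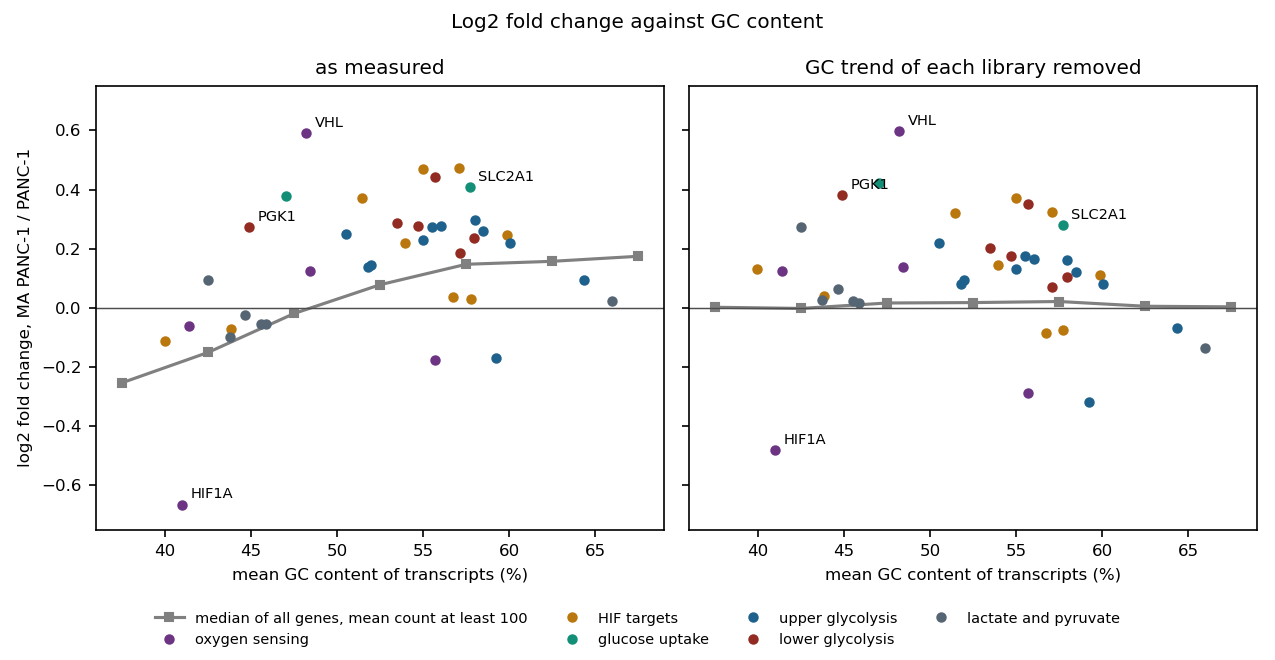
Log2 fold change of the 39 tested members (points, coloured by role) against the mean GC content of their transcripts, as measured (left) and after removal of each library's GC trend (right), with the median of all genes in 5-point GC bins (grey line). The grey line goes from -0.25 to 0.17 on the left and is flat on the right, where HIF1A is at -0.48 (-0.67 on the left) and SLC2A1 at 0.28 (0.41 on the left).

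Counted without a model, 9 of the 39 members (23.1%) had groups that did not overlap in FPKM, against 19.9% of all genes tested. The 7 higher in MA PANC-1 were SLC2A1, SLC2A3, P4HA2, PFKP, GAPDH, PGAM1 and PGK1, where the share of all genes was 8.79%, and the 2 lower were HIF1A and EPAS1, where it was 11.1%. Abundant genes separated more often. Of the 346 genes with a mean of at least 100 FPKM, 101 (29.2%) did not overlap, 74 higher and 27 lower. PFKP, GAPDH, PGAM1 and PGK1 are among these 346.

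A further 86 genes of the same pathways, listed by function with earlier results of these data known, were examined for comparison, and 64 passed the filter. Of these, 6 (9.38%) had an unadjusted p under 0.05, which is near the 11.2% of all genes, and their median log2 fold change was 0.10, with 41 above 0. Only AK4 also passed the adjusted threshold. AK4, a mitochondrial adenylate kinase induced by HIF-1, was at 3.96, 4.37 and 3.95 FPKM with MA and at 15.7, 14.3 and 11.2 FPKM without it. It fell by 1.70 ± 0.15 (SE) on the log2 scale, with an adjusted p of 0.0257 in edgeR, which did not hold when any of MA PANC-1 1, MA PANC-1 3, PANC-1 1 or PANC-1 2 was left out. AK4 is also a gene that the study followed up.

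The other 5 were higher in MA PANC-1, each without overlap and with an adjusted p between 0.376 and 0.431 in edgeR. Of the 64 tested genes, 13 (20.3%) had groups without overlap, 8 higher and 5 lower, which is near the 19.9% of all genes. HIF1AN, the asparaginyl hydroxylase (FIH) that blocks the activation domain of HIF alpha, was at 7.11, 7.03 and 7.04 FPKM against 5.80, 5.51 and 5.64 FPKM, with a log2 fold change of 0.36 ± 0.08 (SE). The samples of each group lay close together and apart from the other group. PCK2, the mitochondrial phosphoenolpyruvate carboxykinase, was at 0.43 ± 0.11 (SE) and PGM1, which links glucose 1-phosphate and glucose 6-phosphate, at 0.32 ± 0.09 (SE). The HIF targets DDIT4, an inhibitor of mTORC1, and EFNA3, an ephrin, were at 0.32 ± 0.12 (SE) and 0.55 ± 0.20 (SE). DDIT4 (63.0% GC) and EFNA3 (62.0%) lie where genes of 60% to 65% GC had a median of 0.16. PCK2 (59.95%) lies where those of 55% to 60% GC had one of 0.15. HIF1AN (47.8%) and PGM1 (49.1%) lie where those of 45% to 50% GC had one of -0.02. Values of these 5 genes with the GC trend removed are not listed here. Among the 16 other regulators, HIF1AN was the 1 of 14 tested with an unadjusted p under 0.05, none of the 7 tested transporters and none of the 10 genes around pyruvate dehydrogenase had one, counts near the 11.2% of all genes, and HIF3A had a count of 0 in every sample.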

How the data were processed

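Poly(A) RNA of 3 MA PANC-1 and 3 PANC-1 samples was sequenced in pairs, with libraries that mark strand. The labels list cutadapt 1.9, HISAT2 2.0.4, StringTie 1.3.4d, edgeR and DESeq2 without roles, and whether counting used strand is not given in the sources used here. The authors deposited for each gene an FPKM value, normalized for transcript length and depth, with 0.0001 listed where a gene has no reads. They also deposited an estimated count, a whole number that was not normalized. Gene positions are on GRCh38. Count totals per sample were between 56978375 and 70275355. They exceed the valid reads that the study lists, so precision was taken from the spread between replicates and halved counts were tried. That the replicates are separate cultures rests on the study's methods.

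The 17774 genes whose mean FPKM reached 0.1 were compared with edgeR 4.0.16 (quasi-likelihood test, TMM) in R 4.3.3, with Benjamini-Hochberg adjustment over all of them. The biological coefficient of variation was 0.308. On counts simulated for these 17774 genes, edgeR recovered 57.7% of 97 genes changed 2-fold and all 103 changed 4-fold, with 7 unchanged genes called. A call here was an adjusted p under 0.05. The simulation gave every gene the same dispersion, lower than that of the data, and held no GC trend. Its changed genes were drawn from those with a mean count over 100. The recovery is therefore a check of the fit and not the power of these data. Isozyme shares were given exact permutation tests over the 6 samples (scipy 1.17.1). Alternatives were DESeq2 1.42.0, limma 3.58.1 on log2(FPKM + 0.1 or 1), other normalizations and filters, a replicate block, each sample left out, overlapping genes summed and genes of a name summed. Chosen after seeing the data were halved counts, removal of a GC trend (loess, span 0.5, over genes whose mean count reached 100, GC from GENCODE transcripts) and overlap in TMM-scaled CPM. The members and the lists of other genes were chosen with earlier results of these data known. Values in each sample are given for members with an unadjusted p under 0.05 or without overlap, the 3 most abundant members, HIF1A, LDHA and SLC2A1. VHL, ANKRD37 and CA9 were added after their values were seen. Other pathway genes are named where their unadjusted p is under 0.05, and HIF3A was added. Promoter windows are those of RefSeq on GRCh38.p14.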

Additional observations from a re-analysis of the deposited data

How the results depend on the processing

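Of 234 alternative values for the 13 members given in every sample by rule, 179 kept their direction and their side of an unadjusted p of 0.05, 49 kept the direction but no longer passed, 4 newly passed and 2 turned. The 2 were LDHA, at 0.019 without PANC-1 replicate 3 (-0.11 to 0.019 over the samples left out) and 0.017 with the GC trend removed, against -0.05. The median log2 fold change of the members was between 0.13 and 0.21 when 1 sample was left out and 0.13 with the GC trend removed. The count of members with an unadjusted p under 0.05 (9) was between 3 and 13 with 1 sample left out, 3 each (7.69%, against 6.63% to 7.93% of all genes) without MA PANC-1 1, PANC-1 1, PANC-1 2 or PANC-1 3, and the count without overlap (9) was between 10 and 19 (25.6% to 48.7%), where the share of all genes was between 27.4% and 38.0%, since 2 samples overlap with 3 less often. DESeq2 gave 1 member with an adjusted p under 0.05 in place of 0. Over all genes, the number with an adjusted p under 0.05 (7) was 263 by DESeq2, 12 with a mean FPKM of at least 1, 33 with the GC trend removed and between 3 and 24 with 1 sample left out. The number of DEGs (342) was 44 by limma with a pseudocount of 1, 93 with a mean FPKM of at least 1, 569 without a filter and between 326 and 534 with 1 sample left out, and that with an unadjusted p under 0.05 (1995) was between 1178 and 3213. Among the other pathway genes, the adjusted calls (1) were between 0 and 1, the DEGs (1) between 1 and 2 and the unadjusted calls (6) between 5 and 12 with 1 sample left out, and the unadjusted calls were 11 with the GC trend removed. Causes were not tested. With 3 samples a group, the median SE of the members' log2 fold changes was 0.13.

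Samples of the 2 groups share replicate numbers, and deviations of same-numbered samples from their group means correlated at 0.03, 0.05 and 0.07, too weakly to pair them, although each was the highest correlation of its sample. With the replicate block, 0 genes and 0 other pathway genes had an adjusted p under 0.05 in edgeR (2215 genes had an unadjusted p under 0.05), and 8 members had an unadjusted p under 0.05 in place of 9. In edgeR with the block, TPI1 had an unadjusted p of 0.0301, PGK1 of 0.0576 and PGAM1 of 0.0712.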
